A study of Mus musculus with 2 samples.

Results

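The 10 genes described here encode the main checkpoint and costimulation proteins of T cells and their ligands, out of 50768 genes counted in the single-cell RNA sequencing (scRNASeq) of mouse salivary glands. They were chosen by name: the inhibitory receptors *Ctla4*, *Pdcd1* (PD-1), *Lag3*, *Tigit* and *Havcr2* (TIM-3), the costimulatory receptors *Cd28* and *Icos*, the nuclear factor *Tox*, and the PD-1 ligands *Cd274* (PD-L1) and *Pdcd1lg2* (PD-L2). The first 8 are called receptor-side genes below, although *Tox* encodes no receptor. All 10 had counts in both libraries.

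A T cell needs a signal from its antigen receptor and a costimulatory signal, which CD28 delivers when it binds CD80 or CD86 on an antigen-presenting cell. CTLA-4 competes for the same ligands, is made constitutively by Foxp3+ regulatory T cells and is induced in other T cells by activation. PD-1, LAG-3, TIGIT and TIM-3 dampen T cells that have been stimulated for a long time, a state in which TOX is required, whereas PD-1 and ICOS are also high in T cells that help B cells.

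The study compared 1 NOD/ShiLtJ library with 1 CD1 library from the submandibular and adjacent sublingual glands of females. The inbred NOD/ShiLtJ strain develops autoimmune inflammation of the salivary glands, and the outbred CD1 strain served as the control. The labels give no transgene or treatment for either group, and the mice were aged 20 weeks. Each library was made from pooled mice, 3 by the labels and 4 by the methods text, and the enzymes named for dissociation differ between these sources (Liberase and dispase in the labels). Cells with EpCAM or Ter119 and dead cells were depleted, so the shares of cells describe what these steps left. With 1 pooled library per strain there is no replicate: no test between the strains was possible, and every interval below is a 95% interval for counting error alone.

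Barcodes with at least 500 unique molecular identifiers (UMIs, which count captured RNA molecules) and 300 genes numbered 6500 in NOD and 7014 in CD1, of libraries with 52790319 and 56483149 UMIs, and 18 barcode sequences were shared by the libraries. A limit of 10% mitochondrial UMIs and the removal of doublets left 4724 NOD and 5416 CD1 cells, with 36600362 and 41777828 UMIs. The cells were clustered without the 10 genes, and a cluster that met a list of markers took its name, ending in "-like". T-like cells numbered 1727 in NOD and 88 in CD1, natural killer (NK)-like cells 637 and 342, B-like cells 591 and 8, macrophage-like cells 300 and 1657, and endothelial-like cells 824 and 2211. The 9 T cell markers, *Cd3e* and *Trac* among them, summed to 5170 counts per 1000000 UMIs (CPM) in NOD T-like cells and 4873 in CD1, against 43.5 and 34.1 in B-like cells. They summed to 1742 CPM in NOD NK-like cells and 681 in CD1. Levels are UMIs of a gene summed over the cells of a group, as CPM of that group.

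*Cd274* and *Pdcd1lg2* lie beside each other on chromosome 19, and the results separate them by cell class, so the promoter of each is shown. They are the 250 bases before the RefSeq start in GRCm38.p6, chr19:29367188-29367437 and chr19:29410669-29410918, both on the plus strand. RefSeq promoters matched 6 of the 10 genes. Capitals mark GGAAA, the core of NFAT sites, which 55.6% of 32851 promoter windows of this length hold, and GAAANNGAA, part of the interferon-stimulated response element (ISRE), which 7.13% hold, each on either strand.
Cd274: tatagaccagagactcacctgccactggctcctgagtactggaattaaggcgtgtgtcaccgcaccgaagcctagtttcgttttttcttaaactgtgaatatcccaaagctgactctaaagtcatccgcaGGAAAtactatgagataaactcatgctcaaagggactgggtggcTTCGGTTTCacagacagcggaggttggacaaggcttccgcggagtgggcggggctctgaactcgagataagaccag
Pdcd1lg2: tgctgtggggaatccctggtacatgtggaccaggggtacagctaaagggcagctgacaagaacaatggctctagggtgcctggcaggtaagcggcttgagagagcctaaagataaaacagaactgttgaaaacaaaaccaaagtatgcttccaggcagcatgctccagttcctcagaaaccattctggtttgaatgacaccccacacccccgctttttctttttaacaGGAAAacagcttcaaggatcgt
Each window holds 1 GGAAA. *Cd274* also holds GAAANNGAA on the minus strand (printed as TTCGGTTTC), starting 76 bases before the start of the gene, and *Pdcd1lg2* does not. Of the other 4 genes with a promoter, *Ctla4* holds it too. The ISRE letters were shortened after the first search: with another A required at the end, 2.98% of the windows match and neither ligand does. TTCNNNGAA, a STAT site found in 7.02% of windows, is in neither window. These are matches of letters, and no binding was measured.

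Over all cells, most UMIs of 7 receptor-side genes in NOD came from T-like cells: 86.9% for *Ctla4*, 79.8% for *Icos*, 77.2% for *Cd28*, 68.0% for *Pdcd1*, 62.7% for *Lag3*, 61.7% for *Tox* and 59.4% for *Tigit*. NK-like cells held 28.9% of the *Tox* and 32.8% of the *Tigit* UMIs. *Havcr2* had another source, since 62.3% of its NOD UMIs and 90% of its CD1 UMIs came from macrophage-like cells. *Cd274* was spread over T-like (34.0%), endothelial-like (25.3%), B-like (12.8%) and NK-like cells (12.6%). *Pdcd1lg2* came from T-like (39.7%), NK-like (23.8%) and B-like cells (23.8%). In CD1, where T-like cells were few, NK-like cells held 80.6% of the *Tox*, 93.2% of the *Tigit* and 54.1% of the *Cd28* UMIs, and macrophage-like cells held 79.6% of the *Pdcd1* and 63.6% of the *Lag3* UMIs. The strains were therefore compared within cell classes.

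**Figure D1:**
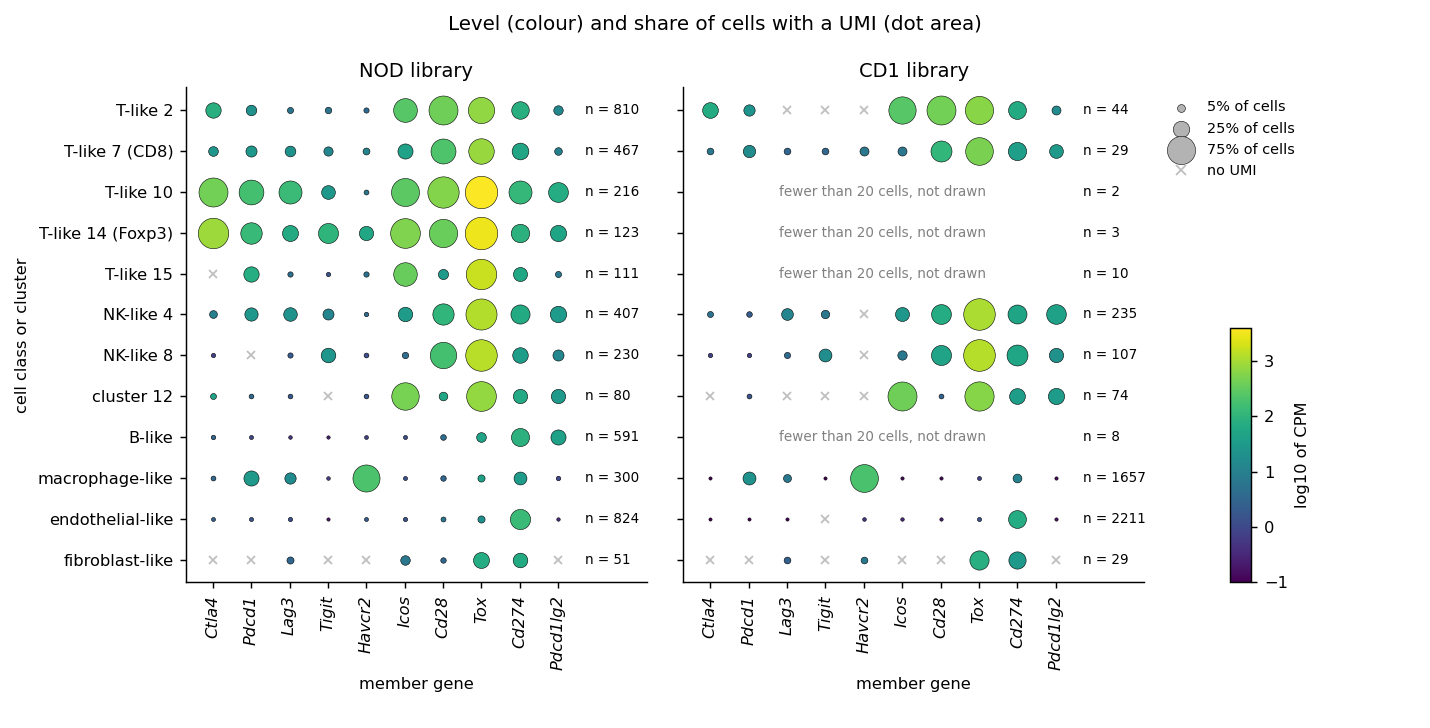
Level (colour, log10 of CPM) and share of cells with at least 1 UMI (dot area) of the 10 genes (x axis) in T-like, NK-like and other groups (y axis) of the NOD library (left) and the CD1 library (right), with crosses for no UMI and the number of cells at the right; groups under 20 cells are not drawn. *Ctla4* is highest in T-like clusters 10 and 14 of NOD, which hold 2 and 3 cells in CD1, *Havcr2* in macrophage-like cells of both strains, and *Cd274* in most groups.

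T-like cells fell into 5 clusters. Cluster 2 (810 NOD and 44 CD1 cells) was led by *Satb1*, *Klf2*, *S1pr1* and *Lef1*, genes of circulating, resting T cells, with *Slpi* and *Igkc* also among its leading genes. It met no list of T subsets, and 540 of its NOD cells had *Cd4* UMIs without *Foxp3* or CD8 UMIs. Cluster 7 (467 and 29 cells) met the CD8 T list and cluster 14 (123 and 3 cells) the regulatory T list. Clusters 10 (216 and 2 cells) and 15 (111 and 10 cells) met none either. Cluster 10 was led by *Pdzrn3*, *Spp1* and *Nts* and cluster 15 by *Scart1*, *Il23r* and *Blk*, with *Trdc* also leading it among all cells. Clusters 10 and 14 made up 12.5% and 7.12% of the NOD T-like cells and 2.27% and 3.41% of the CD1 T-like cells.

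*Ctla4* ranged widely over the T-like clusters of NOD. Its level was 78.7 CPM in cluster 2 (422 UMIs, interval 71.4 to 86.6), 25.8 in cluster 7, 425 in cluster 10 (397 to 454) and 827 in cluster 14 (766 to 892), and none was found in the 111 cells of cluster 15 (upper bound 5.81). Clusters 14 and 10 therefore stood apart from each other and from the rest, and *Ctla4* UMIs were seen in 87.8% and 79.6% of their cells against 21.7% in cluster 2. *Tigit*, which competes with the costimulatory receptor CD226 for ligands, was likewise highest in cluster 14 at 97.7 CPM (77.3 to 122), followed by cluster 10 at 28.1 (21.4 to 36.2), and was 12.9 CPM in cluster 7 and 5.6 in cluster 2. *Havcr2*, which marks terminally exhausted CD8 T cells in tumours, was 55.6 CPM (40.6 to 74.5) in cluster 14 and 12.3 in cluster 7, and only 6.66 in cluster 10, an interval (3.64 to 11.2) that overlapped that of cluster 2 (2.28 to 5.76).

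*Pdcd1* and *Lag3*, whose products bind PD-L1 and MHC class II, were highest in cluster 10. *Pdcd1* was at 167 CPM there (149.9 to 185), at 127 in cluster 14 (104 to 154), at 70.8 in cluster 15, at 27.0 in cluster 7 and at 20.2 in cluster 2. Cluster 14 was below cluster 10 by a log2 ratio of -0.39 (-0.72 to -0.07). *Lag3* was at 132 CPM in cluster 10 (117 to 148), 61.8 in cluster 14 (45.9 to 81.5), 22.2 in cluster 7, 5.78 in cluster 2 and 4.72 in cluster 15. Both genes were thus higher in clusters 10 and 14 than in the other clusters, where no test was made because the clusters were drawn from the same cells.

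The costimulatory receptors spread more widely. *Icos* was at 507 CPM in cluster 14, 335 in cluster 15, 281 in cluster 10, 243 in cluster 2 and 45.2 in cluster 7. CD8 T cells of cluster 7 were thus the low group for *Icos*, and the intervals of clusters 15 (292 to 383) and 10 (258 to 304) overlapped. *Cd28* was highest in cluster 10 at 568 CPM (537 to 602) and lower in clusters 2 (389), 14 (351) and 7 (210.4), whereas cluster 15, which also lacked *Ctla4*, had 29.9 (18.0 to 46.7). *Tox* was at 3695 CPM in cluster 10, 3098 in cluster 14, 1634 in cluster 15, 781 in cluster 7 and 687 in cluster 2, and no 2 of these intervals overlapped, with cluster 7 at 752 to 812 and cluster 2 at 665 to 709.8. *Tox* UMIs were seen in 99.5% of the cells of cluster 10 and in all 123 cells of cluster 14.

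Of the 8 receptor-side genes, 5 were at least 2-fold higher in cluster 10 than in cluster 2 of NOD (*Ctla4*, *Pdcd1*, *Lag3*, *Tigit* and *Tox*) and 7 in cluster 14, where only *Cd28* was not. Of all genes tested, 9.07% and 7.61% were at least 2-fold higher in these comparisons. *Lag3* had the largest fold of cluster 10 over cluster 2, 22.8-fold, with a log2 ratio of 4.51 (3.97 to 5.09), and *Tigit* that of cluster 14 over cluster 2, 17.5-fold, with a log2 ratio of 4.13 (3.50 to 4.78). Between clusters 14 and 10, *Havcr2* (8.36-fold) and *Tigit* (3.48-fold) were higher in cluster 14 and *Lag3* was lower (log2 ratio -1.09, -1.56 to -0.65), where 6.3% and 9.95% of genes were 2-fold higher or lower. Cluster 10 had more UMIs per cell than cluster 2, with medians of 7826 and 6236, and the part of this in the shares of cells was not tested.

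**Figure D2:**
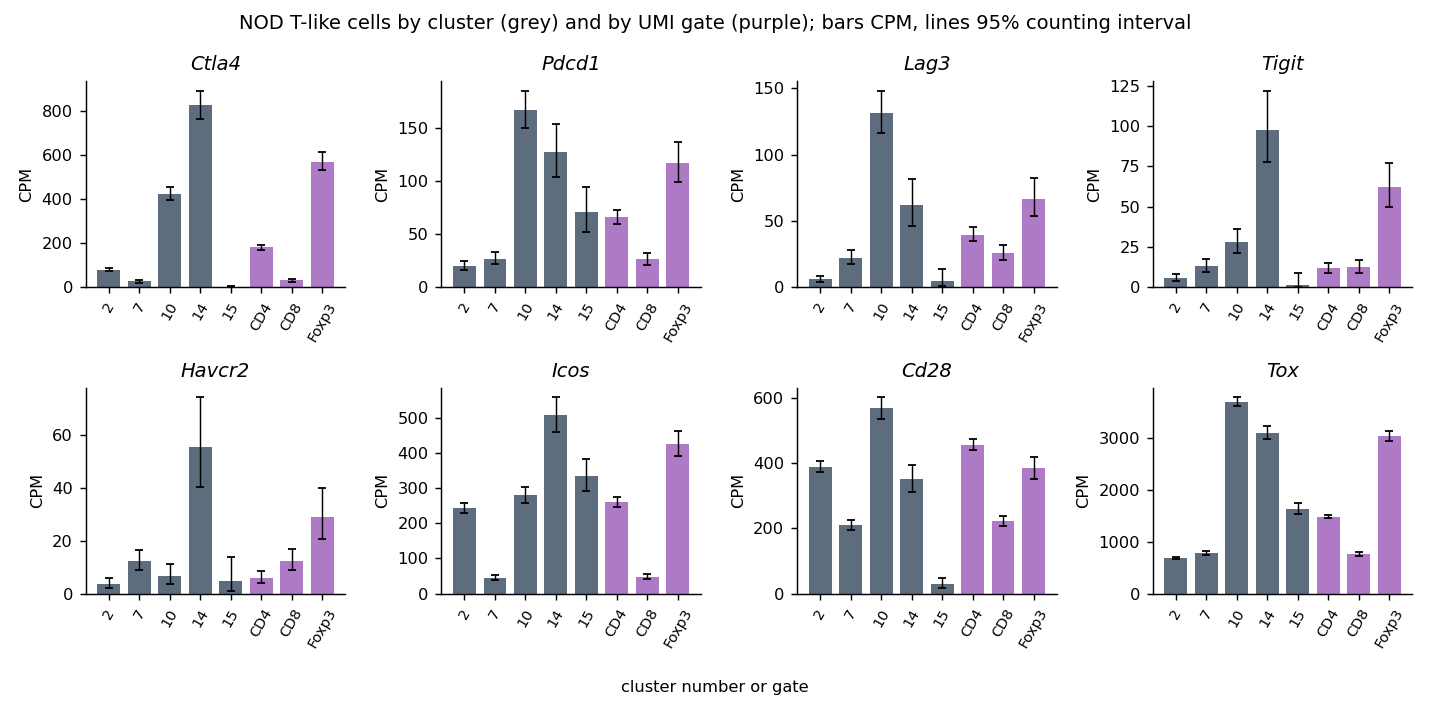
Level in CPM (y axis, from 0) of the 8 receptor-side genes in NOD T-like cells, by cluster (grey bars) and by UMI gate (purple bars), with 95% counting intervals. *Ctla4*, *Tigit* and *Havcr2* peak in cluster 14 (827, 97.7 and 55.6 CPM), and *Pdcd1*, *Lag3*, *Cd28* and *Tox* in cluster 10 (167, 132, 568 and 3695 CPM).

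T subsets were also taken by UMIs. T-like cells with a *Foxp3* UMI were called Foxp3 T (175 in NOD and 3 in CD1), those with *Cd4* UMIs and none of CD8 or *Foxp3* CD4 T (726 and 28), and those with *Cd8a* or *Cd8b1* UMIs and none of *Cd4* or *Foxp3* CD8 T (479 and 23). *Foxp3* UMIs were seen in 10.1% of NOD T-like cells and in 0.677% of B-like cells, at median depths of 6531 and 6566 UMIs. *Ctla4* was at 571 CPM (531 to 613) in Foxp3 T cells, 182 (171 to 194) in CD4 T cells and 30 (24.5 to 36.4) in CD8 T cells of NOD. *Tigit* was at 62.2, 11.6 and 12.2 CPM and *Havcr2* at 29.2, 6.07 and 12.5, so CD4 and CD8 T cells did not differ in *Tigit* beyond their intervals (8.91 to 14.8 and 8.81 to 16.5). *Tox* was at 3038, 1483 and 761 CPM.

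Between Foxp3 T and CD4 T cells of NOD, 4 of 8 receptor-side genes were at least 2-fold higher, *Tigit* (5.37-fold), *Havcr2* (4.81-fold), *Ctla4* (3.14-fold) and *Tox* (2.05-fold), against 4.86% of all genes tested. *Pdcd1* (log2 ratio 0.83, 0.55 to 1.10), *Lag3* (0.75, 0.38 to 1.12) and *Icos* (0.71, 0.57 to 0.86) were higher by less than 2-fold, and *Cd28* was lower (-0.25, -0.39 to -0.11). The CD4 gate is a mixture: 74.4% of its cells lay in cluster 2 and 22% in cluster 10, and *Ctla4* was at 59.9 CPM in the first and 416 in the second, and *Lag3* at 3.45 and 125. Another 2.62% (19 cells) lay in cluster 14, where *Ctla4* was at 1254 CPM. Those 19 cells held 15 *Havcr2* UMIs of the gate, against 14 in its cells of cluster 2 and 4 in those of cluster 10. The Foxp3 gate was divided as well, with 52.0% of its cells in cluster 14, 30.9% in cluster 2 and 16% in cluster 10. Foxp3 T cells of cluster 2 had 359.6 CPM of *Ctla4* (297 to 432), above the 59.9 (52.3 to 68.2) of CD4 T cells in the same cluster, and 0 UMIs of *Havcr2* (upper bound 11.6 CPM). When Foxp3 T cells of cluster 14 were set against CD4 T cells of cluster 2 alone, a choice made after the values were seen, 7 of 8 genes were at least 2-fold higher, against 7.97% of all genes, and *Lag3* moved from a log2 ratio of 0.75 to 3.98.

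CD8 T cells of NOD were the low group for 4 of the 8 genes when set against CD4 T cells, *Ctla4* (log2 ratio -2.60), *Icos* (-2.46), *Pdcd1* (-1.33) and *Cd28* (-1.05), which were at least 2-fold lower, against 7.9% of all genes. Only *Havcr2* was at least 2-fold higher (1.04, 0.36 to 1.74), against 3.69% of genes. *Pdcd1* in CD4 T cells was at 178 CPM in cluster 10 and 20.9 (16.6 to 26.1) in cluster 2. The second interval overlapped that of CD8 T cells in cluster 7 (20.7 to 32.3), so *Pdcd1* was not lower there. Against CD4 T cells of cluster 2, CD8 T cells of cluster 7 stayed lower in *Ctla4* (23.8 and 59.9 CPM), *Icos* (44.1 and 243) and *Cd28* (206 and 402).

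How often inhibitory receptors were seen together differed with the group and with the depth. After each cell was thinned to 2000 UMIs, so that deep cells did not count for more, none of *Ctla4*, *Pdcd1*, *Lag3*, *Tigit* and *Havcr2* was seen in 82.5% of 793 NOD cells of cluster 2, and 30.6% of 216 cells of cluster 10. Of the Foxp3 T cells, 43.4% showed 1 of these genes, 21.7% showed 2 and 3.43% (6 of 175 cells) 3 or more. In cluster 10 these shares were 44.4%, 21.8% and 3.24% (7 cells), and in CD8 T cells 9.94%, 2.33% and 0.634% (3 of 473 cells). Thinning hides genes that a cell expresses: unthinned, 40.3% of the cells of cluster 10 showed 2 and 31.9% showed 3 or more, and 29.7% and 25.7% of Foxp3 T cells did. Among 722 thinned CD4 T cells, *Pdcd1* was seen in 41.7% of the cells with *Lag3* (15 cells) and *Ctla4* in 44.4% of them (16 cells), and the product of the single shares gives 4.04 and 7.03 cells. That gate mixes clusters 2, 10 and 14. Pairs of the 8 receptor-side genes with at least 5 cells by the product were set against 1.5 times the product. At 2000 UMIs, 7 of 16 pairs reached it in CD4 T cells and 0 of 16 in cluster 10. In CD8 T cells 6 of 9 did, in cluster 2 it was 2 of 9 and in Foxp3 T cells 1 of 22. At 1000 UMIs, 6 of 12 did in CD4 T cells, 2 of 15 in cluster 10 and 0 of 2 in CD8 T cells. Unthinned, 7 of 25 did in CD4 T cells, 0 of 21 in cluster 10 and 2 of 18 in CD8 T cells. In unthinned cluster 2 it was 3 of 20 and in Foxp3 T cells 1 of 26, so the CD8 T count varied with the depth. The cause was not tested.

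**Figure D3:**
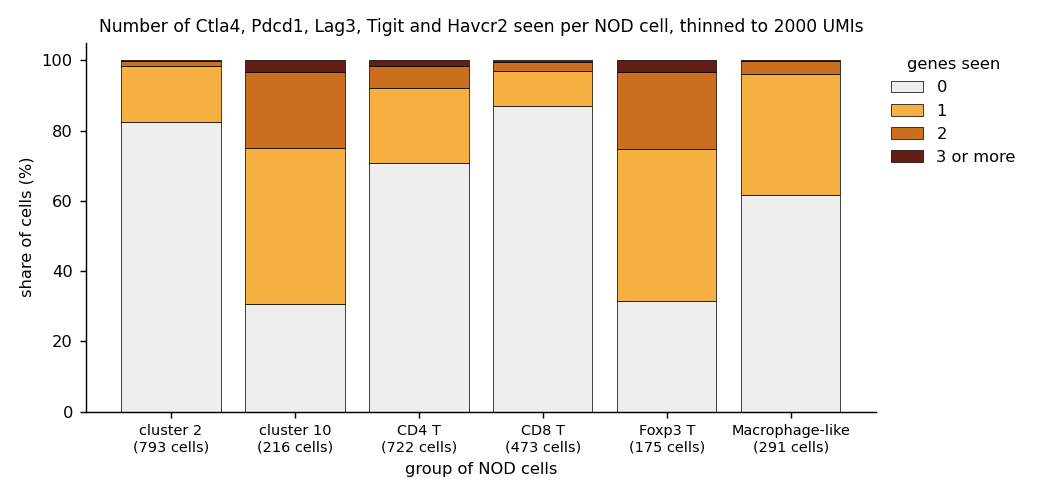
Share of NOD cells (y axis, %) in which 0, 1, 2 or 3 or more of *Ctla4*, *Pdcd1*, *Lag3*, *Tigit* and *Havcr2* were seen after thinning to 2000 UMIs, by group (x axis, with the number of cells). Cluster 10 and Foxp3 T cells have 30.6% and 31.4% of cells with none, and cluster 2 has 82.5%.

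When NOD was compared with CD1 over all T-like cells, the 8 receptor-side genes were all higher in NOD, where 54.2% of all genes were higher, and 6 were at least 2-fold higher, against 8.64% of genes. *Ctla4* was at 169 CPM in NOD (2070 UMIs) against 56.3 in CD1 (43 UMIs), 3-fold, with a log2 ratio of 1.59 (1.15 to 2.06). *Pdcd1* was at 56.9 and 27.5 CPM (log2 ratio 1.05, 0.43 to 1.75), *Tox* at 1438 and 659 (1.13, 1.00 to 1.26), *Lag3* at 35.5 and 2.62 (3.76, 1.90 to 6.81) and *Tigit* at 17.3 and 2.62 (2.72, 0.85 to 5.78). The last 2 ratios rest on 2 UMIs each in CD1. *Havcr2* was at 10.0 and 3.93 CPM with an interval that included 0 (-0.23 to 3.65), and *Icos* (0.35, 0.09 to 0.61) and *Cd28* (0.47, 0.26 to 0.68) were under 2-fold. These *Havcr2* levels lay below the free RNA, at 60.8% of it in NOD and 6.31% in CD1. The median log2 ratio was 1.09 over the 10 genes and 0.08 over all genes tested.

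Within cluster 2, which holds about as large a share of the T-like cells in both strains (46.9% and 50%), this difference was not seen. *Ctla4* was at 78.7 CPM in NOD against 66.0 in CD1 (log2 ratio 0.25, -0.36 to 0.94), *Pdcd1* at 20.2 and 24.0 (-0.25, -1.28 to 0.99) and *Tox* at 687 and 618 (0.15, -0.05 to 0.36). *Icos* was at 243 and 240.2 CPM (0.02, -0.31 to 0.36) and *Cd28* at 389 and 417 (-0.10, -0.35 to 0.16). The counting intervals of *Icos*, *Cd28*, *Tox* and *Ctla4* end short of 2-fold in either direction. They cover no spread between cells or mice, so a 2-fold difference between the strains is not excluded. *Lag3*, *Tigit* and *Havcr2* had 0 UMIs in the 44 CD1 cells, where 3 UMIs would be 9.01 CPM, above their NOD levels of 5.78, 5.6 and 3.73, so no fold was formed. None of the 7 genes with a fold was 2-fold higher in NOD, against 8.88% of all genes, and the median log2 ratio of the 7 was 0.02 against 0.08 over all genes with a fold.

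In cluster 7, the CD8 T cells, 5 of the 8 genes were at least 2-fold higher in NOD, against 11.9% of all genes, but CD1 had 29 cells. *Icos* was at 45.2 CPM in NOD against 6.53 in CD1 (log2 ratio 2.79, 0.91 to 5.85, on 2 UMIs in CD1), *Cd28* at 210.4 and 105 (1.01, 0.50 to 1.57) and *Tox* at 781 and 474 (0.72, 0.48 to 0.97). *Cd28* rests on 702 and 32 UMIs and *Tox* on 2607 and 145. *Ctla4* was at 25.8 and 6.53 CPM (1.98, 0.08 to 5.05) and *Lag3* at 22.2 and 3.27 (2.76, 0.24 to 8.09), on 2 and 1 UMIs in CD1. *Pdcd1lg2* went the other way, with 9.29 CPM in NOD and 29.4 in CD1 (-1.66, -2.77 to -0.41), on 9 CD1 UMIs, where 5.41% of all genes were at least 2-fold lower.

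The pooled ratios changed with the cells that were included. Without clusters 10 and 14, an alternative added after the values were seen, all 8 genes stayed higher in NOD, where 54.1% of all genes were, but the log2 ratio of *Ctla4* was 0.72, that of *Pdcd1* 0.24, that of *Tox* 0.39 and that of *Tigit* 1.52. With a limit of 5% mitochondrial UMIs, *Ctla4* was at 1.60 and *Pdcd1* at 0.88 but *Tox* at 0.21 and *Cd28* at 0.19, and with every cell given the same weight *Ctla4* was at 1.03. Clusters 10 and 14 had 2 and 3 CD1 cells, too few for a comparison within them. The 3 CD1 cells of cluster 14 had 16 *Ctla4* UMIs (649 CPM, 371 to 1055), an interval that held the NOD level of 827.

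**Figure D4:**
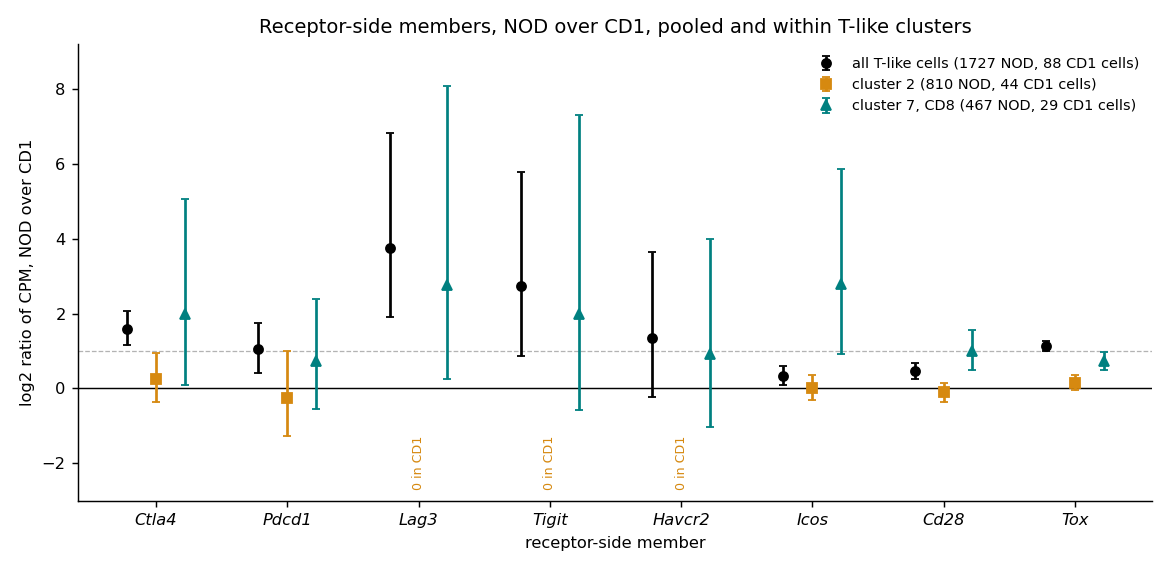
Log2 ratio of CPM, NOD over CD1 (y axis), of the 8 receptor-side genes in all T-like cells (circles), cluster 2 (squares) and cluster 7 (triangles), with 95% counting intervals, a line at 0 and a dashed line at 2-fold. *Ctla4* and *Tox* lie above the 2-fold line in all T-like cells (1.59 and 1.13) and near 0 in cluster 2 (0.25 and 0.15).

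The NK-like cells formed 2 clusters in both strains, cluster 4 led by *Klra5*, *Xcl1* and *Ncr1* (407 NOD and 235 CD1 cells) and cluster 8 by *Gzma*, *Eomes* and Ly49 genes (230 and 107 cells). *Tox*, which NK cells and innate lymphoid cells need for their development, was at a like level in both strains, 1209 CPM in NOD and 1084 in CD1 (log2 ratio 0.16, 0.10 to 0.21). *Tigit* was higher in cluster 8 than in cluster 4 of NOD (25.8 and 12.2 CPM), and *Pdcd1*, *Lag3* and *Icos* were lower, with 0, 2.01 and 4.03 CPM against 28.8, 22.3 and 33.4. In CD1 the clusters stood in the same order for *Tigit* (17.1 and 6.67), *Lag3* (3.71 and 12.2) and *Icos* (6.68 and 27.8). Of the 10 genes, 1 was at least 2-fold higher in cluster 8 of NOD and 6 at least 2-fold lower, against 4.32% and 6.1% of all genes.

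Between the strains, all 8 receptor-side genes were higher in NOD NK-like cells, where 53.1% of all genes were, and 3 were at least 2-fold higher (*Pdcd1*, *Havcr2* and *Cd28*), against 5.46%. In NOD NK-like cells *Ctla4* was at 10.5% of its level in free RNA, *Havcr2* at 17.7%, *Icos* at 35.2%, *Lag3* at 71.7% and *Pdcd1* at 76.0%. *Tigit*, *Cd28* and *Tox* lay above the free RNA. The count of higher genes is therefore not read as expression by NK-like cells. With 5% free RNA subtracted, 6 of the 8 were higher, with *Ctla4* at a log2 ratio of -0.13 and *Icos* at -0.03, and with at most 5% mitochondrial UMIs 7 were, with *Icos* at -0.07. *Pdcd1* was at 18.3 CPM in NOD (125 UMIs) against 1.73 in CD1 (7 UMIs), with a log2 ratio of 3.40 (2.32 to 4.75), and all NOD UMIs were in cluster 4. *Cd28* was at 125 and 60.1 CPM (1.06, 0.85 to 1.27), and the difference was larger in cluster 8 (167 and 46.8 CPM, 1.84, 1.45 to 2.24) than in cluster 4 (101 and 66.7 CPM, 0.60, 0.34 to 0.85). *Havcr2* had 20 UMIs in NOD and none in CD1, at least 3.95-fold higher with 3 UMIs over the class as the floor.

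T cell markers moved with these values: UMIs of *Cd3d*, *Cd3e* or *Cd3g* were seen in 79.6% of NOD and 37.4% of CD1 NK-like cells. In the NK-like cells without them (130 and 214 cells), an alternative added after the values were seen, 5 of 8 genes were higher in NOD, where 52.1% of all genes were (*Havcr2* with 2 UMIs against 0) and 1 of the 7 members tested was at least 2-fold higher, against 3.62% of all genes. That gene was *Cd28*, at 121 and 56.8 CPM (1.09, 0.74 to 1.45). *Pdcd1* was at 8.98 and 0.873 CPM there (10 and 2 UMIs, 3.36, 1.13 to 6.59), *Tox* at 1198 and 1076, *Lag3* at 5.39 and 9.61 (-0.83, -2.43 to 0.51) and *Ctla4* at 0.898 and 3.93.

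*Icos* and *Tox* were also high in cluster 12 (80 NOD and 74 CD1 cells), which met no marker list and was led by *Stab2*, *Il1rl1* and *Gata3*. *Icos* was at 459 CPM in NOD against 383 in CD1 (log2 ratio 0.26, 0.01 to 0.52), and *Tox* at 712 and 589 (0.27, 0.07 to 0.48). In CD1 this cluster held 52.7% of all *Icos* UMIs. *Ctla4* in its NOD cells, 45.4 CPM, came from 2 cells with 26 UMIs, and *Cd28*, 52.4 CPM, from 5 cells.

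Macrophage-like cells carried *Havcr2*, which is known on myeloid cells, at 199 CPM in NOD (183 to 216) against 187 in CD1 (180.4 to 194), in 69.3% and 73.2% of cells, and the log2 ratio of 0.09 had an interval of -0.04 to 0.22 and was -0.03 after median-of-ratios scaling. *Pdcd1* was at 31.4 CPM in NOD (90 UMIs, 21.0% of cells) against 21.5 in CD1 (328 UMIs, 15.1%), with a log2 ratio of 0.55 (0.20 to 0.89). *Lag3* was at 15.7 and 6.87 CPM (1.20, 0.66 to 1.71). These levels can be set against free RNA, taken from barcodes of 10 to 100 UMIs. *Pdcd1* in macrophage-like cells was 131% of its level in free RNA in NOD and 362% in CD1. *Lag3* was 75.5% of it in NOD, below the free RNA, and 231% in CD1, whereas *Ctla4* was 5.84% and 4.41%. Free RNA itself held more of both genes in NOD, with 24.1 CPM of *Pdcd1* against 5.93 in CD1 and 20.8 of *Lag3* against 2.97. With 5% free RNA subtracted, the log2 ratio was 0.53 for *Pdcd1* and 1.12 for *Lag3*. Larger shares were not tried, and the part of free RNA was not tested further.

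In NOD, T cell genes were found at a low level in classes that should lack them. *Tox* was at 39.1 CPM in NOD macrophage-like and 19.1 in NOD endothelial-like cells against 0.719 and 1.44 in CD1, and *Cd28* at 6.54 in NOD endothelial-like cells against 0.230 in CD1. Free RNA of NOD held 340.1 CPM of *Tox* and 89.8 of *Cd28*, that of CD1 108 and 8.31. In NOD endothelial-like cells *Tox* was thus at 5.6% of the free RNA, *Cd28* at 7.28%, *Ctla4* at 4.06%, and the 9 T cell markers at 3.8%. All 9 T markers were above 0 there (summed, 68.9 CPM in NOD and 1.78 in CD1). No expression is read from levels this far below the free RNA, and their source was not tested. They were not spread evenly: the 102 *Tox* UMIs of NOD endothelial-like cells were in 33 of 824 cells, with 29 in 1 cell, and those of NOD macrophage-like cells, 11.5% of the free RNA, came from 12 cells. *Cd274* in endothelial-like cells was at 231% of the free RNA in both strains, and *Havcr2* in NOD macrophage-like cells at 1205%.

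*Cd274*, the ligand through which many tissue cells restrain PD-1+ T cells and which interferons induce, was highest among the named classes in endothelial-like cells, where it was at 132 CPM in NOD (706 UMIs, 122 to 142) against 68.5 in CD1 (1192 UMIs, 64.7 to 72.5). The log2 ratio was 0.95 (0.81 to 1.08), 1.93-fold. UMIs were seen in 38.0% of NOD and 29.5% of CD1 cells, and after thinning to 2000 UMIs in 18.1% and 11.5%. Both endothelial-like clusters showed the difference: cluster 0, led by capillary genes such as *Plvap* and *Kdr*, had 144 CPM in NOD and 72.9 in CD1 (0.98, 0.84 to 1.13), and cluster 5, led by *Sox17*, *Gja4* and *Sema3g*, genes of arterial endothelium, 82.8 and 47.5 (0.80, 0.40 to 1.19). No endothelial count of members is drawn from this, since *Cd28* and *Tox*, the members at least 2-fold higher there against 7.25% of all genes, lie below the free RNA as described above.

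In macrophage-like cells *Cd274* was lower, at 33.5 CPM in NOD (96 UMIs, 27.2 to 41.0) against 10.1 in CD1 (154 UMIs, 8.54 to 11.8), 3.33-fold with a log2 ratio of 1.74 (1.35 to 2.11). UMIs were seen in 15.0% and 6.52% of cells. At least 2-fold higher in NOD were 7.5% of all genes in this class. These levels lay below the free RNA, at 58.7% of it in NOD and 33.9% in CD1, and free RNA held 57.2 CPM of *Cd274* in NOD against 29.7 in CD1. With 5% free RNA subtracted the log2 ratio was 1.85, and larger shares were not tried. The ratio was 0.76 when each library was clustered alone, and 1.32 with a limit of 5% mitochondrial UMIs. Scaling by the median of ratios moved all genes by 0.12 in this class and left *Cd274* at 1.62.

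*Cd274* was counted in lymphocytes too. It was at 85.8 CPM in NOD B-like cells (77.1 to 95.1) and 68.2 in the 8 CD1 cells (4 UMIs), at 116 in T-like cluster 10, 87.8 in cluster 14, 80.1 in cluster 2 and 50.9 in cluster 7 of NOD. In CD1, clusters 2 and 7 had 63.0 and 35.9 CPM, within counting error of NOD, while all T-like cells together had 77.5 CPM in NOD against 48.5 in CD1 (log2 ratio 0.68, 0.20 to 1.19). NK-like cells did not differ as a class (51.7 and 49.4 CPM, 0.06, -0.19 to 0.32), but cluster 4 was higher in NOD (61.4 and 47.8, 0.36, 0.05 to 0.68) and cluster 8 lower (34.6 and 52.7, -0.61, -1.08 to -0.13). Fibroblast-like cells had 62.4 CPM in NOD and 29.2 in CD1, on 38 and 12 UMIs. Free RNA held 57.2 CPM in NOD and 29.7 in CD1, so fibroblast-like cells lay near it in both strains. In NOD, T-like cluster 7, NK-like cells as a class and cluster 8 lay below the free RNA. B-like cells and T-like clusters 2, 10 and 14 of NOD lay above it.

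*Pdcd1lg2*, known mainly from dendritic cells, macrophages and B cell subsets, was nearly absent from the macrophage-like (3 UMIs in NOD and 2 in CD1) and endothelial-like cells (2 and 3 UMIs) in which its neighbour *Cd274* was counted 96 to 1192 times. It was at 42 CPM in NOD B-like cells (36.0 to 48.8), 68.0 in T-like cluster 10 (57.3 to 80.1) and 48.2 in cluster 14. NK-like cells had 25.6 CPM in NOD and 36.1 in CD1 (log2 ratio -0.49, -0.82 to -0.17), lower in NOD in both clusters 4 (32.4 and 43.7) and 8 (13.7 and 20.8), although the interval in cluster 8 included 0 (-1.37 to 0.17). No class met the dendritic cell list: cluster 16, with *Flt3* and *Il12b* among its leading genes, stayed unnamed, and in its 93 NOD cells *Cd274* was at 70.9 and *Pdcd1lg2* at 19.2 CPM.

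**Figure D5:**
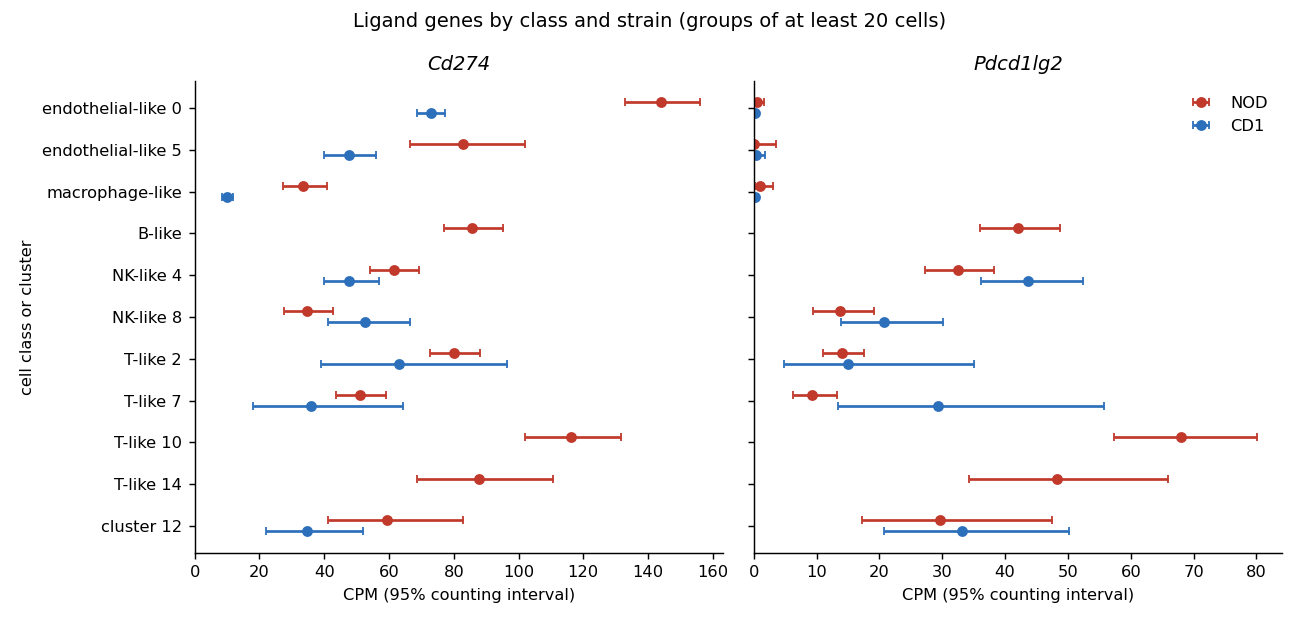
Level in CPM (x axes, with 95% counting intervals) of *Cd274* (left) and *Pdcd1lg2* (right) in groups of at least 20 cells (y axis) of NOD (red) and CD1 (blue). In *Cd274* the strains stand apart in both endothelial-like clusters and in macrophage-like cells, and *Pdcd1lg2* is near 0 in these groups and seen in B-like, NK-like and T-like cells.

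Other checkpoint genes were read from a list of 57 (19 receptors, 18 ligands and 20 genes of activated T cells). Over all T-like cells, 50 could be tested, and 14 were at least 2-fold higher in NOD and 2 lower with an interval that leaves out 0, where 4.28% of all genes were higher and 3.01% lower. The 5 largest were *Cxcr5* (log2 ratio 3.6, 1.1 to 8.91, on 1 UMI in CD1), *Cd200* (3.36), *Rgs16* (2.28), *Btla* (2.24) and *Il21*, which had 203 UMIs in NOD and none in CD1 (log2 ratio at least 2.08 with 3 UMIs over the class as the floor). CXCR5 guides T cells to B cell follicles, interleukin-21 is the cytokine with which they help B cells, and BTLA is an inhibitory receptor. *Cd160* (-1.32) and *Cd244a* (-1.03) were lower, at 14.7 and 36.7 CPM and at 18.0 and 36.7 CPM. The pathway genes with the highest CPM in NOD T-like cells were *Ikzf2*, *Cd226*, *Hmgb1*, *Cd2* and *Tcf7*. Within cluster 2, 6 of 42 were higher and 2 lower, where 3.08% and 2.69% of all genes were, with *Btla* (1.05) and *Ikzf2* (1.59) among the higher.

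Within NOD, 25 of 49 pathway genes were at least 2-fold higher in cluster 10 than in cluster 2 and 1 was lower, where 8.49% and 6.01% of all genes were. They included *Il21* (85.1 and 2.24 CPM), *Tnfrsf9* (140.3 and 4.67), *Cd200* (497 and 18.1), *Rgs16* (221 and 12.9), *Tnfrsf4* (306 and 40.9), *Cxcr5* (49.9 and 9.52), *Bcl6* (91.8 and 40.1) and *Slamf6* (604 and 195). The gene lower in cluster 10 was *Prdm1* (6.18 and 27.8), whose product represses BCL6. Between Foxp3 T and CD4 T cells of NOD, 14 of 50 were higher and 4 lower, where 4.05% and 3.84% of all genes were. *Ikzf2* (4429 and 499 CPM), *Tnfrsf9* (189 and 41.6), *Tnfrsf4* (514 and 135), *Tnfrsf18* (355 and 104) and *Il10* (31.5 and 5.52) were higher and *Il21* (3.75 and 33.1) and *Tcf7* (136 and 313) lower. The pathway genes named in this paragraph were chosen after their values were seen.

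Of the receptors' other ligands, *Cd86*, bound by CD28 and CTLA-4, was the pathway gene with the highest CPM in NOD macrophage-like cells, at 798 CPM in NOD against 599 in CD1. In these cells 12 of 41 pathway genes were higher and 1 lower, where 6.46% and 2.95% of all genes were: the ligands *Cd276* (log2 ratio 1.92), *Pvr* (1.72) and *Cd40* (1.61), named after their values were seen, were higher and *Ceacam1*, a ligand of TIM-3, was lower (0.699 and 9.09 CPM, -3.70, -6.76 to -1.82). The largest ratios there, *Cd2* (5.69), *Btla* (5.48), *Cd226* (4.20), *Nt5e* (3.34) and *Tcf7* (2.96), are of genes at 6.64 to 16.8 CPM in NOD, and the part of free RNA in them was not tested. Endothelial-like cells had *Nectin2*, a TIGIT ligand also named after its value was seen, at 60.7 CPM in NOD against 18.1 in CD1 (1.75, 1.52 to 1.97) and *Ceacam1* at 60.4 and 176 (-1.55, -1.72 to -1.38), and *Nr4a1*, an immediate early gene, at 22.4 and 124 (-2.47, -2.75 to -2.21). *Nr4a2* (-1.64), *Nr4a3* (-1.33) and *Bhlhe40* (-1.14) were lower too. There 15 of 37 were higher and 5 lower, where 6.47% and 2.55% of all genes were, and 9 of the higher ones were lymphocyte receptors such as *Cd5* (4.11 and 0.0575 CPM). The part of free RNA in this count was not tested, and the count is not read as expression by endothelial-like cells. In NK-like cells 7 of 46 were higher, led by *Irf4* (4.70, on 1 UMI in CD1), *Btla* (3.89, on 1 UMI) and *Slamf6* (2.16), and *Cd40* was lower (-1.34), where 4.62% and 3.56% of all genes were. Without cells holding *Cd3* UMIs, 3 of 36 were higher, where 3.19% of all genes were, with *Slamf6* (1.79) among them.

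Genes with the most similar pattern were found by Pearson's r of log2(CPM + 10) over 29 groups of at least 30 cells, among 8845 genes, as a description without a p-value, since groups of 1 library share depth and free RNA. *Ctla4* was most like *Izumo1r* (r = 0.960), a folate receptor family member found on regulatory T cells, then *A430093F15Rik* and *Tox2*. *Icos* was most like *Bcl11b* (0.936), *Cd28* like *Cxcr3* (0.923) and *Cd3d*, *Tox* like *Skap1* (0.958), *Tigit* like *Tnfrsf9* (0.898) and *Rgs16*, and *Havcr2* like *Tspan33* (0.926) and *Tifab*. *Pdcd1* (with *Lag3*, 0.810), *Lag3* (with *Mir155hg*, 0.835), *Cd274* (with *Helz2*, an interferon-induced gene, 0.858) and *Pdcd1lg2* (with *5830428M24Rik*, 0.865) had no match above 0.9.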

How the data were processed

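One scRNASeq library per strain was analysed, each from pooled mice. The authors deposited raw UMI counts per gene and barcode for all barcodes, without normalisation. The submitters' processing notes name Cell Ranger 8.0.0, Seurat 5.0.1, R 4.3.1 and the build GRCm39.

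From these counts, barcodes were kept from 500 UMIs and 300 genes, with a mitochondrial share of up to 10%, and the highest Scrublet scores (scanpy 1.11.5) were removed as doublets, at 0.8% per 1000 barcodes. Libraries were integrated by CCA in Seurat 5.3.0 (R 4.3.3) with 2000 features and 30 dimensions, from which the 10 genes and 57 pathway genes were left out, and clustered at resolution 0.5. A cluster was named where at least 3 markers of a list were raised in it and that list led the next by a mean log2 of 0.5. Its leading genes could not hold more markers of another list. A shallow cluster without markers of its list among its leading genes stayed unnamed. Cluster 9 (96 NOD and 224 CD1 cells, median 1067 UMIs) thus stayed outside the endothelial-like class, although 6 endothelial markers were raised in it. Levels are CPM with exact Poisson intervals, shares have exact Clopper-Pearson intervals, and ratios have conditional exact binomial intervals, all at 95%. A gene entered the background with at least 20 UMIs over both groups. A ratio to a group without UMIs used a floor of 3 UMIs. On simulated counts, the intervals held the true ratio for 96.7% of 12635 genes in T-like cells. Those counts were drawn independently, as the intervals assume, without spread between cells or mice. The simulation therefore checks the calculation and not how well the intervals suit these data.

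The 10 members and all lists were chosen with earlier results of these data known. From the pathway list, the 5 genes with the highest CPM and the 5 with the largest ratio in each direction could be named in a class, and for each member the 3 genes most like it. Alternatives were other barcode, mitochondrial and doublet limits, other clustering, scaling and weighting, a free RNA correction and other T cell definitions. GRCm39 coordinates were not used here.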

Additional observations from a re-analysis of the deposited data

Results flagged for a closer look

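Barcodes with more than 10% mitochondrial UMIs, 1583 in NOD and 1340 in CD1, entered no comparison. In those of NOD, 9 of the 10 genes lay above their level in CD1, as did 61.4% of all genes with enough UMIs, and no cause was tested. *Ctla4* was at 77.8 CPM (0.568 in CD1), *Pdcd1* at 31.2 (5.39), *Lag3* at 20.1 (1.70) and *Tigit* at 10.3 (0.284). *Icos* was at 75.4 CPM (12.5 in CD1), *Cd28* at 136 (5.96) and *Tox* at 1173 (95.1). The ligands *Cd274* and *Pdcd1lg2* were at 62.4 CPM (18.2 in CD1) and 16.2 (1.70). *Havcr2* was the exception, with 21.1 CPM in NOD and 51.4 in CD1. These barcodes were not divided into cell classes, so the make-up of the libraries and the level per cell cannot be told apart.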

How the results depend on the processing

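No paired analysis was possible because each strain has 1 library. No interval covers differences between mice, and the 88 CD1 T-like cells limit every comparison of T cells. All 8 receptor-side genes were higher in NOD T-like cells under each of 11 alternatives, but *Pdcd1lg2* went from a log2 ratio of 0.28 to -0.81 without clusters 10 and 14. In NK-like cells all 8 were higher, but 6 with 5% free RNA subtracted and 7 with at most 5% mitochondrial UMIs. In NK-like cells without *Cd3* UMIs, an alternative added after the data were seen, 5 of 8 genes were higher in place of 8, and *Lag3* went from 0.67 to -0.83. *Cd274* in macrophage-like cells went from 1.74 to 1.32 with at most 5% mitochondrial UMIs and to 0.76 with each library clustered alone, and in endothelial-like cells from 0.95 to 0.80 in cluster 5 alone, also added later. The number of receptor-side genes at least 2-fold higher in Foxp3 than CD4 T cells was 4, between 3 and 7 under 11 alternatives, and 7 for Foxp3 T cells of cluster 14 against CD4 T cells of cluster 2, again added later. The causes of these changes were not tested. Of 65 alternative values of the main results, 60 stayed within the range set for an unchanged result, as did 261 of 316 for single genes. For a ratio this range was the counting interval of the main value. For counts of genes it was coarse: 6 or 7 in place of 8, and 3 in place of 4, were taken as unchanged.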

Other observations

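Dividing-like cells, led by *Mki67* and *Top2a*, numbered 58 in NOD and 124 in CD1. *Icos* was at 163 CPM in NOD and *Ctla4* at 91.4, and neither had a UMI in CD1. *Cd28* was at 126 CPM in NOD and 2.02 in CD1, and *Tox* at 744 and 60.7. *Havcr2* was lower in NOD, at 46.7 and 159 CPM (log2 ratio -1.77, -2.26 to -1.30). The class holds cells of several types, whose shares were not compared.

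A few cells held most UMIs of some genes in NOD T-like cells. The tenth of cells with the most UMIs of a gene held 71.8% of the *Ctla4* UMIs, 52.5% of the *Tox*, 49.7% of the *Icos* and 39.4% of the *Cd28* UMIs. Single cells reached 32 UMIs of *Ctla4* and 233 of *Tox*.

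Cluster 16, which met no list, had 93 cells in NOD and 19 in CD1, with median depths of 21267 and 11001 UMIs. Clustered again on its own, it split into groups of 48, 27 and 18 NOD cells and of 0, 18 and 1 CD1 cells. These groups were led by *Igha*, *S100a9* and *Grm8*. *Cd274* was lower there in NOD than in CD1, at 70.9 and 173 CPM (log2 ratio -1.29, -1.81 to -0.74), and *Havcr2* was at 56.5 and 107 CPM (-0.92, -1.56 to -0.22). *Tox* was at 472 CPM in NOD and had no UMI in CD1. The strains differ in the make-up of this cluster, so make-up and level per cell cannot be told apart here.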
